A study of Arabidopsis thaliana with 24 samples.

Results

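Trehalose-6-phosphate synthase (TPS) transcripts are described here by their loci: *TPS1* (AT1G78580), the class I member, and the 7 class II members *TPS5* (AT4G17770), *TPS6* (AT1G68020), *TPS7* (AT1G06410), *TPS8* (AT1G70290), *TPS9* (AT1G23870), *TPS10* (AT1G60140) and *TPS11* (AT2G18700). They are 8 of 27826 transcripts in the table, and each has 1 value on each of 24 arrays. Rosettes of *Arabidopsis thaliana* WT (Col-0) and of the *gnat2* mutant in the same ecotype were compared. The mutant is a single T-DNA insertion line that lacks the plastid acetyltransferase GNAT2. All plants grew on soil for 4.5 weeks in days of 8 h at 120 µmol photons per square metre and second, 23 °C and 50% humidity. From 2 h after the onset of light they stayed for 2 h at the growth intensity (control, C), went to 1000 µmol of the same unit (HL, high light) or were kept in the dark (D). Both genotypes under each of these lights make 6 groups, with 4 biological replicates in each. Values are the log2 signals that the authors normalized, so that a difference of 1 is a 2-fold change, and arrays were brought to a common distribution with a median of 2.35 and quartiles of 1.35 and 4.79.

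Trehalose-6-phosphate is a phosphorylated disaccharide that plants keep at trace amounts and that follows the supply of sucrose. It is made from UDP-glucose and glucose-6-phosphate by trehalose-6-phosphate synthase, dephosphorylated to trehalose by trehalose-phosphate phosphatases (TPP), and the trehalose is split into glucose by trehalase. In growing tissue, trehalose-6-phosphate inhibits SnRK1, the protein kinase that switches metabolism to a starvation programme. TPS1 is the main active synthase in *Arabidopsis*, and its loss arrests the embryo. The class II proteins carry a synthase-like domain followed by a phosphatase-like domain, and a regulatory rather than a catalytic role is usually assigned to them. Because whole rosettes were measured, fewer cells with a transcript and less of it per cell cannot be told apart.

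The arrays of a group resembled each other closely, with Pearson's r across transcripts between 0.980 and 0.986 in WT and between 0.987 and 0.993 in *gnat2*. WT arrays thus resembled each other slightly less, while the fit below took 1 spread per transcript for all groups. *GNAT2* (AT1G32070), the gene disrupted in the mutant, read 5.31 to 6.30 on the WT arrays and 1.53 to 2.39 on the *gnat2* arrays, so that each array followed its genotype label. Leaf transcripts were high throughout, with *RBCS1A*, *RCA* and *CA1* between 10.7 and 12.7. Of 6 markers of root, seed and flower, 5 lay below the array median on all 24 arrays. The root and seedling gene *PYK10* read between 1.23 and 4.37 with a wide spread inside every group. This spread followed the replicate number in part. Replicate 2 read highest in every group but WT C, with 4.37 in WT HL, 3.71 in WT D, 4.01 in *gnat2* C and 3.26 in *gnat2* HL and D. In WT C replicate 1 was highest (4.13). The cause was not tested. Differences were estimated with limma in 1 fit over all arrays, with p-values adjusted by the Benjamini-Hochberg method over all 27826 transcripts, and a transcript was called at an adjusted p under 0.05. SE is the standard error of a log2 fold change in this fit. Within groups the SD of a TPS transcript lay between 0.04 and 0.48, with a median of 0.22.

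After 2 h of darkness, most class II transcripts rose strongly while *TPS5* fell. In WT, *TPS6*, *TPS7*, *TPS8*, *TPS9*, *TPS10* and *TPS11* were higher in D than in C, by 1.49-fold (*TPS7*) to 10.01-fold (*TPS11*), and *TPS5* was 3.02-fold lower. The same 6 transcripts were higher in *gnat2*, by 1.60-fold (*TPS7*) to 12.6-fold (*TPS9*), and *TPS5* was 2.97-fold lower. So 6 of 8 members were called higher in D in each genotype, where 12.7% of all transcripts in WT and 13.3% in *gnat2* were called higher. Called lower in D were 1 member in WT and 2 in *gnat2*, *TPS1* being the second, against 13.1% and 14.5% of all transcripts. The median log2 fold change of the 7 class II transcripts was 2.08 in WT and 2.20 in *gnat2*, whereas the median of all transcripts lay at 0.00 in both.

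High light was compared with the same control arrays as darkness, so that both sets of values share them. *TPS7*, *TPS8*, *TPS9*, *TPS10* and *TPS11* fell in HL against C in both genotypes and *TPS5* rose. In WT these changes ran from 1.55-fold lower (*TPS7*) to 17.2-fold lower (*TPS8*), with *TPS5* 1.78-fold higher. In *gnat2*, *TPS6* was called lower as well, so that 6 members fell and 1 rose. Of all transcripts, 11.5% in WT and 12.1% in *gnat2* were called lower, and 11.9% and 12.5% higher. The median log2 fold change of the class II transcripts was -0.97 in WT and -1.15 in *gnat2*, beside -0.01 over all transcripts in each.

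**Figure D1:**
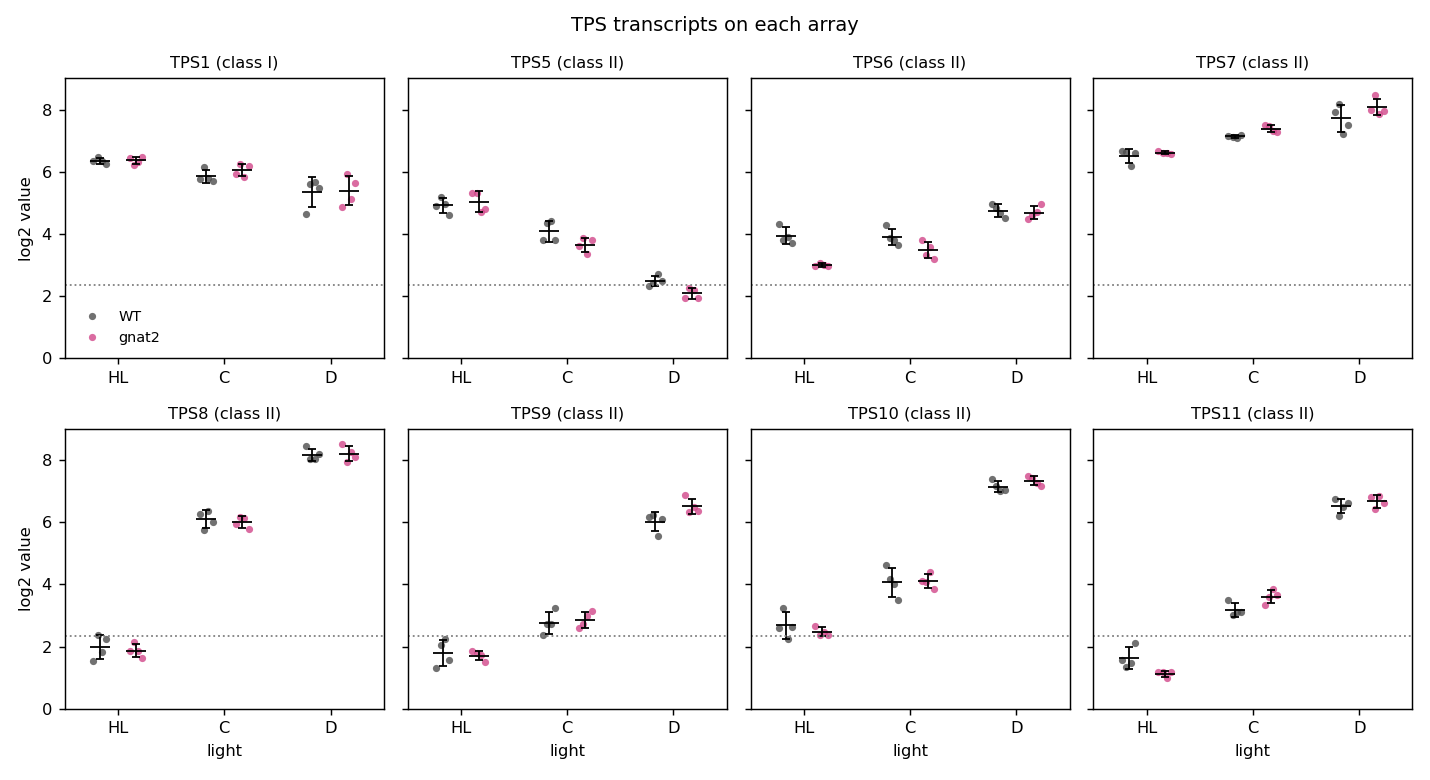
Log2 value (y axis) of each TPS transcript on each array in high light (HL), control light (C) and darkness (D, x axis), with WT in grey and *gnat2* in pink. Points are arrays, black dashes and bars are the mean ± SD (n = 4), and the dotted line is the median of all values, 2.35. From HL through C to D, *TPS8*, *TPS9*, *TPS10* and *TPS11* climb in both genotypes, *TPS5* descends and *TPS1* stays within 4.64 to 6.48.

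*TPS1*, the catalytic member, varied least between the group means, which spanned 1.02 on the log2 scale. In WT it read 5.77, 6.16, 5.80 and 5.71 under C, 6.35, 6.47, 6.33 and 6.24 under HL, and 4.64, 5.60, 5.68 and 5.47 under D. In *gnat2* it read 5.93, 6.25, 5.84 and 6.18 under C, 6.43, 6.23, 6.33 and 6.48 under HL, and 4.87, 5.93, 5.13 and 5.64 under D. The HL arrays of WT were all above those under C and the D arrays all below, and in *gnat2* each light overlapped its neighbour in this order. Ordered by their means, all neighbouring groups of *TPS1* overlapped in their ranges. The log2 fold change in HL was 0.49 in WT (SE 0.20, limma adjusted p = 0.0832) and 0.32 in *gnat2* (SE 0.20, adjusted p = 0.313), and neither was called. The WT value was called under some alternatives. Its adjusted p was 0.0277 without the other groups in the fit and 0.0467 with the replicate number as a block. Over all alternatives it ran from 0.0277 to 0.175. The log2 fold change in D was -0.51 in WT (SE 0.20, adjusted p = 0.0653) and -0.66 in *gnat2* (SE 0.20, adjusted p = 0.0149), and the latter was called. Over the alternatives the adjusted p of the WT value in D ran from 0.0338 to 0.319, with 0.0353 for the block. The WT value was thus also called under some. Replicate 1 had the lowest value under D in each genotype. Without it, the log2 fold change in D was -0.27 (adjusted p = 0.319) for WT, and for *gnat2* -0.48 (adjusted p = 0.0882), so that the call in *gnat2* was lost. The call was also lost without *gnat2* D replicate 3 (-0.57, adjusted p = 0.0585) or *gnat2* C replicate 2 (-0.59, adjusted p = 0.0518). Set directly against each other, HL and D differed in both genotypes, by 1.00 in WT (SE 0.20, adjusted p = 2.15e-04) and 0.98 in *gnat2* (SE 0.20, adjusted p = 2.57e-04).

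Among the class II members, *TPS5* alone rose with light in both genotypes. Its protein binds the transcriptional coactivator MBF1c, which is known from heat tolerance. Under C it read 3.80, 4.33, 4.41 and 3.79 in WT and 3.60, 3.85, 3.36 and 3.79 in *gnat2*. In HL the values were 4.91, 5.17, 4.96 and 4.61 in WT and 5.33, 5.30, 4.71 and 4.81 in *gnat2*. In D they were 2.32, 2.41, 2.72 and 2.497 in WT and 1.95, 2.25, 2.20 and 1.92 in *gnat2*. No array of one light reached those of another light in the same genotype. The log2 fold change in HL was 0.83 in WT (SE 0.17, limma adjusted p = 5.65e-04) and 1.38 in *gnat2* (SE 0.17, adjusted p = 6.10e-07). In D it was -1.60 in WT (SE 0.17, adjusted p = 5.98e-08) and -1.57 in *gnat2* (SE 0.17, adjusted p = 7.00e-08). Under D, 5 arrays, 1 of WT and all 4 of *gnat2*, lay below the array median, and no test here showed that signals so low exceed the background.

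*TPS8* spanned the widest range of the family, 6.33 between its highest and lowest group mean. Together with *TPS10* it is commonly used as a transcript marker of SnRK1 activity. Under C it read 6.28, 5.75, 6.37 and 6.004 in WT and 5.95, 6.18, 6.12 and 5.77 in *gnat2*. In HL it dropped to 1.55, 2.37, 1.83 and 2.24 in WT and to 1.86, 2.16, 1.84 and 1.63 in *gnat2*. In D it reached 8.45, 8.03, 8.05 and 8.19 in WT and 8.53, 7.94, 8.25 and 8.11 in *gnat2*. The ranges of the lights were far apart and those of both genotypes overlapped in every light. In HL the log2 fold change was -4.11 in WT (SE 0.17, limma adjusted p = 7.43e-15) and -4.13 in *gnat2* (SE 0.17, adjusted p = 5.50e-15). Ranked over all transcripts, this was the 8th largest fall in WT and the 10th largest in *gnat2*. In D the log2 fold change was 2.08 in WT (SE 0.17, adjusted p = 1.07e-09) and 2.20 in *gnat2* (SE 0.17, adjusted p = 3.76e-10). *TPS8* thus had the largest fall measured in HL, while its rise in D was below those of *TPS9*, *TPS10* and *TPS11*. These had group means of 2.76 to 4.11 under C, which left no room for a fall as large as that of *TPS8*. The order of the members in HL is therefore not a ranking of their true responses. A test between members was not made for these sizes. For *TPS8*, 7 of the 8 HL arrays lay below the array median, so that the size of its fall is uncertain.

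*TPS9*, *TPS10* and *TPS11* rose strongly in D and fell in HL. The 5 organ markers below the array median had group means of 0.96 to 1.66, so that from the levels of *TPS9* and *TPS11* under C a fall as large as their rise in D could not have been measured, and the sizes of both responses are not ranked here. *TPS9* read 2.36, 2.73, 2.72 and 3.23 in WT and 2.59, 2.72, 2.98 and 3.13 in *gnat2* under C, against 6.18, 6.23, 5.56 and 6.10 in WT and 6.87, 6.34, 6.51 and 6.35 in *gnat2* under D. No array under D came within 2 log2 units of an array under C. The log2 fold change in D was 3.26 in WT (SE 0.20, limma adjusted p = 4.12e-12) and 3.66 in *gnat2* (SE 0.20, adjusted p = 4.81e-13). These were the 70th and 53rd largest rises of all transcripts. In HL, *TPS9* read 1.31, 2.06, 2.23 and 1.56 in WT and 1.85, 1.79, 1.72 and 1.496 in *gnat2*, all below the array median. The corresponding log2 fold change was -0.97 in WT (SE 0.20, adjusted p = 5.99e-04) and -1.15 in *gnat2* (SE 0.20, adjusted p = 7.89e-05).

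*TPS10* under C read 4.62, 4.16, 4.01 and 3.49 in WT and 4.12, 4.07, 4.41 and 3.84 in *gnat2*. In HL it read 2.61, 3.25, 2.23 and 2.63 in WT and 2.67, 2.38, 2.48 and 2.38 in *gnat2*, below every array under C of the same genotype. In D the values were 7.39, 7.17, 7.0 and 7.03 in WT and 7.48, 7.42, 7.28 and 7.17 in *gnat2*, above all others. The log2 fold change in HL was -1.39 in WT (SE 0.19, limma adjusted p = 4.79e-06) and -1.63 in *gnat2* (SE 0.19, adjusted p = 3.64e-07), and that in D was 3.08 (SE 0.19, adjusted p = 6.84e-12) and 3.22 (SE 0.19, adjusted p = 2.74e-12), respectively.

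*TPS11*, which is known for a part in the defence against green peach aphids, gave the largest rise of the family in WT in D. Under C it read 3.51, 3.02, 3.11 and 3.12 in WT and 3.35, 3.61, 3.84 and 3.65 in *gnat2*. In HL the values were 1.56, 1.34, 1.49 and 2.13 in WT and 1.20, 1.17, 0.99 and 1.17 in *gnat2*, so that every WT array was above every *gnat2* array and all 8 were below the array median. In D they were 6.74, 6.21, 6.49 and 6.61 in WT and 6.80, 6.41, 6.86 and 6.62 in *gnat2*. The log2 fold change in D was 3.32 in WT (SE 0.16, limma adjusted p = 3.19e-14) and 3.06 in *gnat2* (SE 0.16, adjusted p = 1.55e-13). In HL it was -1.56 in WT (SE 0.16, adjusted p = 2.80e-08) and -2.48 in *gnat2* (SE 0.16, adjusted p = 7.77e-12).

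*TPS7* fell in HL and rose in D in both genotypes, and *TPS6* rose in D in both but was called in HL in *gnat2* alone. The TPS7 and TPS6 proteins bind 14-3-3 proteins when phosphorylated, and *TPS6* is known from a mutant with altered cell shape. *TPS7* lay between 7.09 and 7.19 in WT and between 7.28 and 7.50 in *gnat2* under C, between 6.17 and 6.65 and between 6.55 and 6.67 in HL, and between 7.22 and 8.19 and between 7.87 and 8.45 in D, so that the lights did not overlap within a genotype. In HL its log2 fold change was -0.63 in WT (SE 0.16, limma adjusted p = 0.00438) and -0.78 in *gnat2* (SE 0.16, adjusted p = 4.97e-04). In D it was 0.58 in WT (SE 0.16, adjusted p = 0.00795) and 0.68 in *gnat2* (SE 0.16, adjusted p = 0.00164). The call for D in WT was lost in a fit of these arrays alone, without the other groups (adjusted p = 0.0610, with 5.38e-04 to 0.0610 over all alternatives).

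*TPS6* read 4.27, 3.87, 3.81 and 3.65 in WT and 3.81, 3.32, 3.58 and 3.21 in *gnat2* under C. In HL it stayed at 4.33, 3.81, 3.88 and 3.72 in WT, whereas *gnat2* read 2.97, 3.08, 3.00 and 2.96. In D it was at 4.98, 4.82, 4.67 and 4.50 in WT and 4.47, 4.59, 4.71 and 4.97 in *gnat2*, above all arrays of the same genotype under C and HL. It was called higher in D in both genotypes, with a log2 fold change of 0.84 in WT (SE 0.16, limma adjusted p = 1.65e-04) and 1.20 in *gnat2* (SE 0.16, adjusted p = 1.11e-06). In HL the log2 fold change was 0.04 in WT (SE 0.16, adjusted p = 0.914) and -0.48 in *gnat2* (SE 0.16, adjusted p = 0.0250). The latter call was lost without *gnat2* C replicate 1 (-0.37, adjusted p = 0.120) or replicate 3 (-0.45, adjusted p = 0.0677), and without *gnat2* HL replicate 1 (adjusted p = 0.0566), 3 (adjusted p = 0.0504) or 4 (adjusted p = 0.0574).

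**Figure D2:**
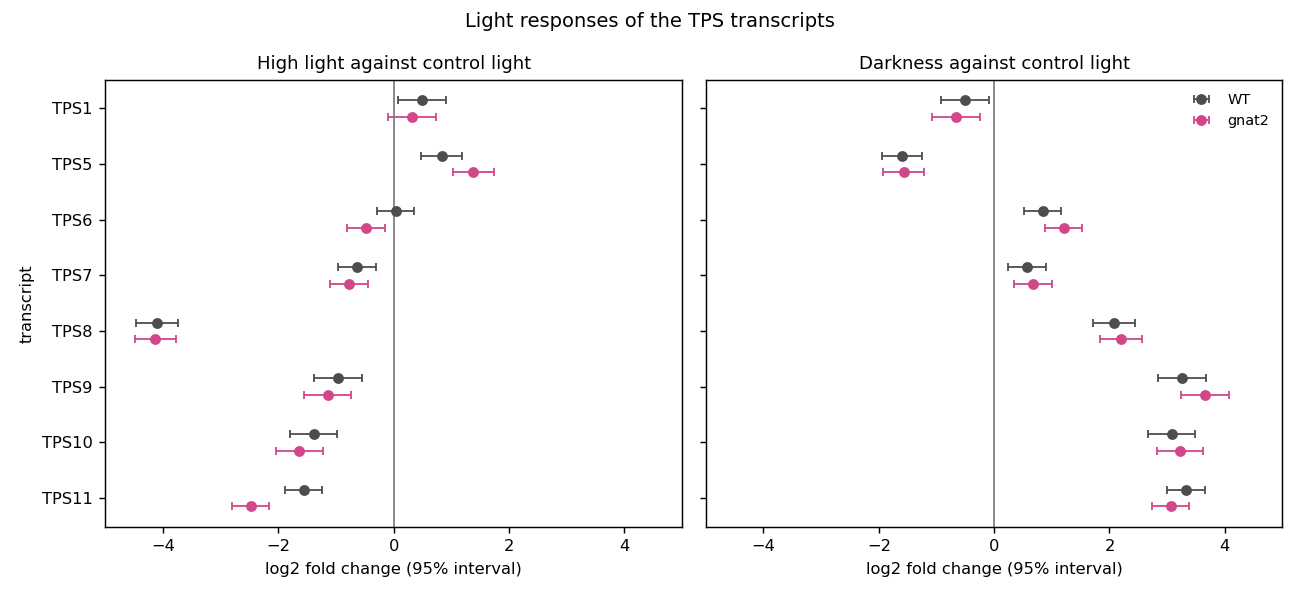
Log2 fold change (x axis, with 95% intervals from limma, n = 4 arrays per group) of the 8 TPS transcripts (y axis) in high light (left) and darkness (right) against control light, with WT in grey and *gnat2* in pink. In darkness the 6 transcripts from *TPS6* to *TPS11* lie right of 0 and *TPS5* lies left of it, and in high light *TPS8* lies farthest left, at -4.11 and -4.13.

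The direct comparison of HL with D, which uses the same arrays again, gave wider differences than the comparisons with C for 7 of the 8 members in both genotypes, the exception being *TPS6* in WT (-0.81 against 0.84 for D with C). In both genotypes, 6 members were called lower in HL than in D and 2, *TPS1* and *TPS5*, higher. Of all transcripts, 18.6% in WT and 19.7% in *gnat2* were called lower, and 19.1% and 20.5% higher. *TPS8* was 72.8-fold lower in HL than in D in WT and 80.7-fold lower in *gnat2*, *TPS11* 29.6-fold and 46.6-fold, *TPS10* 22.1-fold and 29.0-fold, and *TPS9* 18.7-fold and 28.0-fold. These are ratios of array signals. In HL, *TPS8*, *TPS9* and *TPS11* were not shown to lie above background, and *TPS11* in *gnat2* read as low as the organ markers, so that the true folds are uncertain and those of WT and *gnat2* are not ranked. The median log2 difference over the class II members was -4.23 in WT and -4.81 in *gnat2*.

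To ask whether class II members responded differently from *TPS1*, the value of *TPS1* on the same array was subtracted from that of every other transcript and limma was fitted to these differences over 27825 transcripts. The test compares responses and says nothing of levels between genes. Because each transcript was set against the same *TPS1* values, the shares of all transcripts called depend on *TPS1* itself. The error of *TPS1* also entered every difference alike, so that limma took the spread as better known than 4 arrays per group allow. The p-values of this fit are therefore likely too small and its intervals too narrow, by an amount that was not measured. In D, all 7 class II members differed from *TPS1* in each genotype, 6 with a more positive response and *TPS5* with a more negative one. Over the alternatives, the unmoderated test among them, 7 were called in WT and 6 to 7 in *gnat2*. More positive than *TPS1* were 29.2% of all transcripts in WT and 58.1% in *gnat2*, and more negative were 2.76% and 2.54%. The differences in D reached 3.84 for *TPS11* in WT (95% interval 3.26 to 4.41, limma adjusted p = 4.28e-20) and 4.31 for *TPS9* in *gnat2* (95% interval 3.73 to 4.90, adjusted p = 1.16e-22). For *TPS5* the difference in D was -1.09 in WT (95% interval -1.61 to -0.56, adjusted p = 9.92e-04) and -0.92 in *gnat2* (95% interval -1.44 to -0.39, adjusted p = 0.00423). *TPS5* thus fell in D by more than *TPS1* did.

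In HL, *TPS7*, *TPS8*, *TPS9*, *TPS10* and *TPS11* responded more negatively than *TPS1* in WT. *TPS6* was called as well in *gnat2*, but its differences from *TPS1* in the 2 genotypes were not tested against each other. Over the alternatives, 5 to 6 class II members were called in HL in WT and 6 to 7 in *gnat2*. Of all transcripts, 26.1% in WT and 12.0% in *gnat2* responded more negatively, and 2.44% and 3.55% more positively. The largest difference measured was that of *TPS8*, with -4.60 in WT (95% interval -5.18 to -4.01, limma adjusted p = 1.03e-23) and -4.45 in *gnat2* (95% interval -5.03 to -3.87, adjusted p = 5.67e-23). For *TPS5* the difference from *TPS1* was called in *gnat2*, at 1.06 (95% interval 0.54 to 1.59, adjusted p = 0.00179), and not in WT, at 0.34 (95% interval -0.19 to 0.86, adjusted p = 0.274). *TPS6* differed by -0.46 in WT (95% interval -1.01 to 0.10, adjusted p = 0.172) and by -0.80 in *gnat2* (95% interval -1.35 to -0.25, adjusted p = 0.0365).

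**Figure D3:**
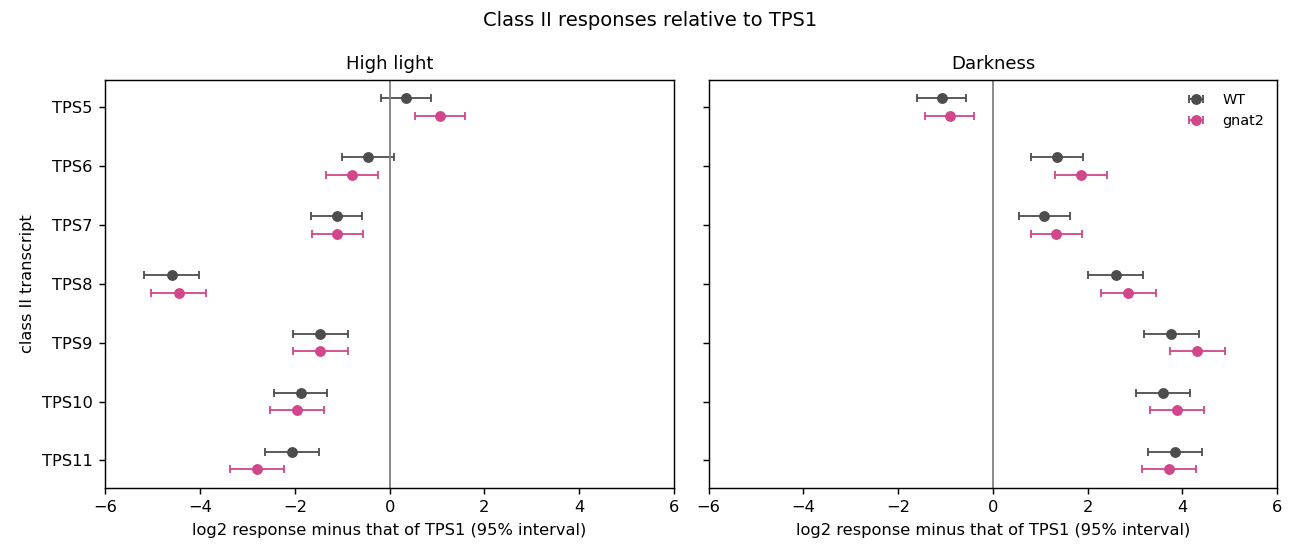
Log2 response of each class II transcript minus the log2 response of *TPS1* on the same arrays (x axis, with 95% intervals from limma, n = 4 arrays per group) in high light (left) and darkness (right), with WT in grey and *gnat2* in pink. In darkness 6 transcripts lie right of 0 and *TPS5* lies left of it, and in high light the intervals of *TPS5* and *TPS6* in WT include 0.

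Between the genotypes few members were called, which does not show that the others were alike. Under C, limma called 0 of 8 members (3 at an unadjusted p under 0.05, *TPS5*, *TPS6* and *TPS11*, as were 4329 of all 27826 transcripts), where 0.708% of all transcripts were called higher in *gnat2* and 0.589% lower. Under D it called 0 members (3 at an unadjusted p under 0.05, *TPS5*, *TPS7* and *TPS9*, as were 5241 of all transcripts), with 2.03% of all transcripts called higher and 1.89% lower. The unmoderated test also called 0 members under C and D. Under HL, *TPS6* was called lower in *gnat2*, by 1.91-fold (log2 fold change -0.94, SE 0.16, adjusted p = 0.00277), and 0 members higher, against 0.981% and 0.934% of all transcripts. All 4 *gnat2* arrays of *TPS6* under HL lay below all 4 WT arrays, and over all alternatives the adjusted p stayed between 0.00137 and 0.0232. *TPS11* had a log2 fold change of -0.50 under HL (SE 0.16, adjusted p = 0.108) and was not called.

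The difference between the responses of *gnat2* and WT was tested as an interaction. It was called by limma and by the unmoderated test for 0 of 8 members in HL (3 at an unadjusted p under 0.05, beside 1720 of all transcripts) and for 0 in D (0 at an unadjusted p under 0.05, beside 2095 of all transcripts), where 0.0108% and 0.0288% of all transcripts were called by limma. In HL the largest differences were those of *TPS11* (-0.92, 95% interval -1.38 to -0.46, adjusted p = 0.216), *TPS5* (0.55, 95% interval 0.06 to 1.05, adjusted p = 0.740) and *TPS6* (-0.51, 95% interval -0.97 to -0.06, adjusted p = 0.738), and that of *TPS11* rests on HL signals near background. For *TPS8* the difference was -0.03 in HL (95% interval -0.53 to 0.48) and 0.12 in D (95% interval -0.39 to 0.63). The call of *TPS6* in *gnat2* but not in WT under HL is therefore not shown to be a difference between the genotypes in the response.

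Across the 24 arrays, the members fell into opposite sets. *TPS9*, *TPS10* and *TPS11* followed each other most closely, with Pearson's r between 0.967 and 0.985, and *TPS8* correlated with them at 0.877 to 0.945. *TPS5* ran against *TPS11* (r = -0.979) and with *TPS1* (r = 0.833). Arrays of the 3 lights lie apart, so that these values describe mainly the light groups. After the group means were subtracted, r lay between -0.193 and 0.447 among *TPS8* to *TPS11* and was 0.40 for *TPS1* and *TPS5*. Among 27240 other annotated transcripts ranked by r with *TPS10*, *TPS11* stood at place 18, and *TPS10* stood at place 21 in the ranking for *TPS11*. The transcripts most like each member over the 24 arrays were AT3G07110 for *TPS1* (r = 0.924), *GAPC2* for *TPS5* (r = 0.974), *AGF2* for *TPS6* (r = 0.935), *PP2C74* for *TPS7* (r = 0.960), AT2G46220 for *TPS8* (r = 0.995), *TTL3* for *TPS9* (r = 0.984), *STP1* for *TPS10* (r = 0.993) and *BGAL1* for *TPS11* (r = 0.993). Next in order came AT2G36885 and *SAPX* for *TPS1*, *CPUORF47* and AT5G14700 for *TPS5*, *GRP3S* and *GRP-3* for *TPS6*, and *FER* and *TIC* for *TPS7*. For the others these were *ATG8F* and *ACX4* (*TPS8*), *ATG8E* and *MCCA* (*TPS9*), AT2G30600 and AT3G61260 (*TPS10*), and AT1G74910 and AT3G61260 (*TPS11*). AT3G61260 was therefore named for both *TPS10* and *TPS11*. By their locus codes 6 of the 8 members, 5 of them class II, lie on chromosome 1.

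**Figure D4:**
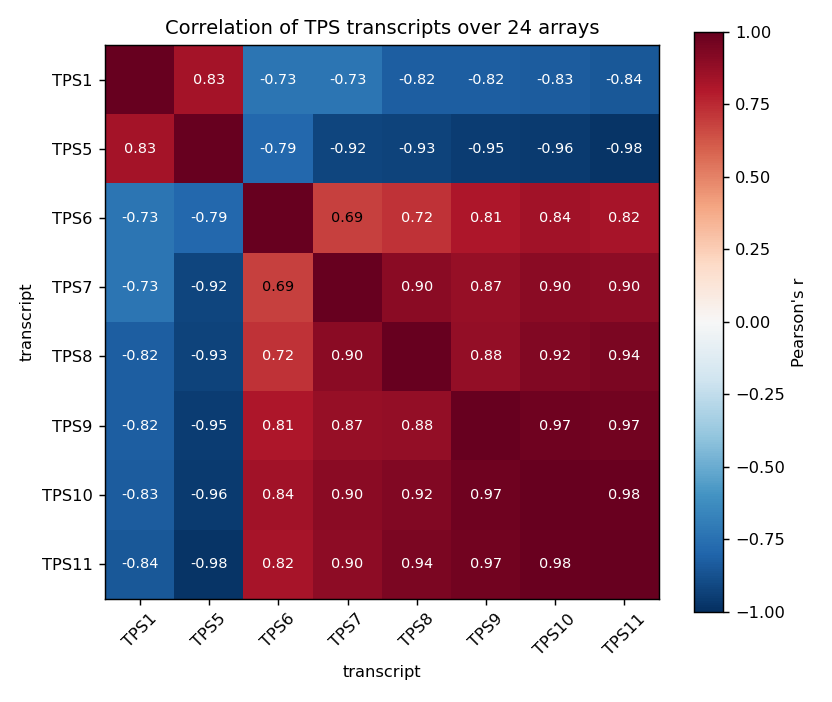
Pearson's r between the TPS transcripts (both axes) over the 24 arrays, from -1 (blue) to 1 (red), printed in each cell to 2 decimals. *TPS1* and *TPS5* form one block, and *TPS6* to *TPS11* form another with negative r to the first.

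The rest of the trehalose pathway was looked at through 14 further genes, *TPS2*, *TPS3* and *TPS4* of class I, 10 TPP genes and the trehalase *TRE1* (AT4G24040). Of these, 6 lay below the array median on all arrays, *TPS2*, *TPS3* and *TPS4* among them. In D, 2 genes rose and 1 fell in WT, and 1 rose and 1 fell in *gnat2*. Of all transcripts, 12.7% were called higher and 13.1% lower in D in WT, and 13.3% and 14.5% in *gnat2*. In HL, 2 rose in each genotype, and 2 fell in WT and 1 in *gnat2*. The shares of all transcripts in HL were 11.9% higher and 11.5% lower in WT, and 12.5% and 12.1% in *gnat2*. An excess over these shares was not tested. The median log2 fold change of the 14 genes in D was 0.04 in WT and -0.14 in *gnat2*, beside class II medians of 2.08 and 2.20. Besides the 6 genes that lay below the array median throughout, *TPPB* did so on 22 arrays and *TPPF* on 21. Signals so low were not shown to exceed the background and can hold the median of the list near 0. The lists are therefore not compared by these medians, and the difference between them was not tested.

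*TRE1* was the gene of this list that moved most. In WT it read 2.26, 2.16, 2.03 and 1.90 under C, 1.46, 1.41, 1.20 and 1.60 under HL, and 4.63, 4.09, 4.80 and 4.70 under D. In *gnat2* it read 1.56, 1.73, 2.35 and 1.81 under C, 1.75, 1.51, 1.53 and 1.43 under HL, and 4.88, 4.42, 4.70 and 4.73 under D. All arrays under D stood above all others in each genotype. Its log2 fold change in D was 2.47 in WT (SE 0.16, limma adjusted p = 1.24e-11) and 2.82 in *gnat2* (SE 0.16, adjusted p = 9.62e-13), from levels under C that lay near or below the array median. In HL it was called lower in WT (-0.67, SE 0.16, adjusted p = 0.00249) and not in *gnat2* (-0.31, SE 0.16, adjusted p = 0.199). The limma interaction did not call these responses different (adjusted p = 0.879), and all HL arrays of *TRE1* lay below the array median.

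Among the phosphatases, *TPPE* fell in D with a log2 fold change of -1.18 in WT (SE 0.22, limma adjusted p = 1.98e-04) and -1.69 in *gnat2* (SE 0.22, adjusted p = 1.52e-06). *TPPJ* and *TPPG* rose in HL, *TPPJ* by a log2 fold change of 1.11 in WT (SE 0.18, adjusted p = 4.07e-05) and 1.24 in *gnat2* (SE 0.18, adjusted p = 7.43e-06), and *TPPG* by 0.88 in WT (SE 0.24, adjusted p = 0.00812) and 1.27 in *gnat2* (SE 0.24, adjusted p = 2.26e-04). *TPPH* went the opposite way in HL, with -0.89 in WT (SE 0.17, adjusted p = 2.83e-04) and -1.71 in *gnat2* (SE 0.17, adjusted p = 2.13e-08), and in D it was called higher in WT (0.51, SE 0.17, adjusted p = 0.0300) and not called in *gnat2* (-0.10, SE 0.17, adjusted p = 0.788). Its responses in *gnat2* and WT were not called different by the limma interaction, in HL (adjusted p = 0.396) or in D (adjusted p = 0.572). *TPPH* was also the 1 gene of the 14 that was called between the genotypes, lower in *gnat2* under HL with a log2 fold change of -0.65 (SE 0.17, adjusted p = 0.0478). *TPPF* was called in HL against D in *gnat2* (0.78, SE 0.22, adjusted p = 0.00514) and in no comparison with C.

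**Figure D5:**
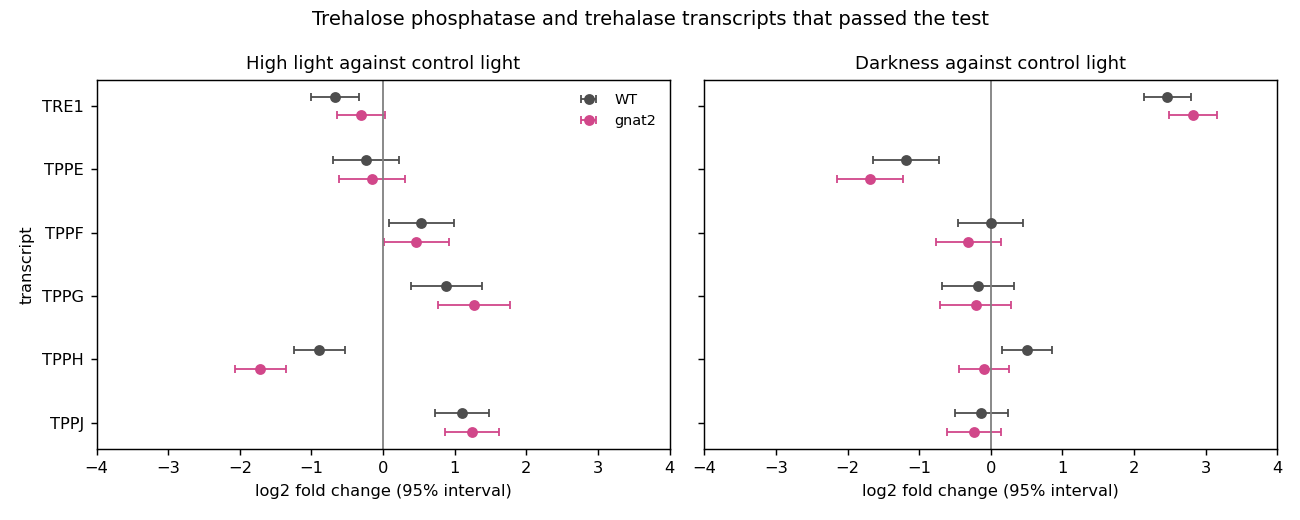
Log2 fold change (x axis, with 95% intervals from limma, n = 4 arrays per group) of the trehalase transcript *TRE1* and of the 5 trehalose-phosphate phosphatase transcripts called in at least 1 comparison (y axis), in high light (left) and darkness (right) against control light, with WT in grey and *gnat2* in pink. *TRE1* lies at 2.47 and 2.82 in darkness, *TPPE* is the only one of them with both intervals below 0 there, and *TPPG* and *TPPJ* lie right of 0 in high light.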

How the data were processed

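RNA of rosettes was hybridized to Affymetrix Arabidopsis gene arrays, 1 array per sample. Deposited were log2 values for 27826 transcripts, with 0 missing. To make them, the authors mapped probes to genes of TAIR through a custom chip definition, corrected the background by RMA and normalized by quantiles. The number of arrays limits the precision, quantile normalization removes differences in total RNA, and no detection calls were used here.

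Groups came from the sample titles, and the labels call the replicates biological. A model with 1 mean per group was fitted over the 24 arrays by limma 3.58.1 under R 4.3.3, leaving 18 residual degrees of freedom (6.05 prior), with two-sided tests. The prior value is not that of the fit to the differences from *TPS1*. The study's methods used ANOVA, and the unmoderated contrasts of that model were an alternative. The code was tested for the recovery of set changes on simulated data, in which arrays of the same replicate number shared no deviation. That test says nothing of the rate of false calls in the real data. The members, lists and comparisons were chosen with earlier results of these data known. Named were all members, *GNAT2*, the marker genes, for each member the 3 transcripts with the highest r, and list genes that were called. Names of the transcripts most like a member come from RefSeq's TAIR10.1 table, which lists 27241 of the transcripts and all 32 genes of the lists. Genes of the lists bear common names, where that table has *NSI* for *GNAT2* and *ATTPS6* for *TPS6*. Alternatives were a replicate block, an unmoderated test, an intensity trend, array weights, a filter on low values, 3 normalizations, only the arrays compared, a 2-fold limit, adjustment over families of comparisons, and leaving out each array.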

Additional observations from a re-analysis of the deposited data

Results flagged for a closer look

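In 3 of the 90 groups of 4 arrays examined (the 8 members, *GNAT2* and the 6 further genes called, in 6 groups each), a single array stood far from the other 3 by Dixon's criterion for the gap within a group, and chance gives about 1 in 20. *TPS7* read 6.17 in WT HL replicate 3, against 6.59 to 6.65 on the other arrays. *TPS11* read 0.99 in *gnat2* HL replicate 3, against 1.17 to 1.20. *TPPF* read 1.17 in *gnat2* D replicate 4, against 1.499 to 1.538. The causes were not tested.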

How the results depend on the processing

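The log2 fold changes of the 8 members in 11 comparisons stayed on the same side of the threshold in 951 of 968 values under 11 settings and in 2099 of 2112 values with an array left out. The sign turned in 1 and 38 of these values, respectively, and in 0 of the values that were called. The 2-fold limit accounted for 12 of the 13 calls lost under settings: with it, 3 members in place of 6 were called for HL in WT and 0 in place of 1 for *gnat2* against WT under HL. No other count of members moved by over 1.5 times. *TPS1* was called for HL in WT with the replicate number as a block (adjusted p = 0.0467) and with only the arrays compared (adjusted p = 0.0277), within 0.0277 to 0.175 over all alternatives. For D in WT its adjusted p was 0.0353 with the block and 0.0476 with an intensity trend, within 0.0338 to 0.319. Leaving out 1 array also called *TPS1*, for HL in WT without WT D replicate 1 (adjusted p = 0.0325) and for D in WT without WT D replicate 2 (0.0471) or 3 (0.0338) or *gnat2* D replicate 1 (0.0458) or 2 (0.0436).

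The main fit used no block for the replicate number. Between same-numbered arrays of different groups, deviations from the group means correlated at -0.014 to 0.240. The mean was 0.079, against -0.026 for arrays of other numbers. Of 24 arrays, 23 correlated best with an array of their own number, so that same-numbered arrays shared some of their deviation. Its cause was not tested. The block gave 7 called members in place of 6 for HL in WT, 8 in place of 7 for D in WT, and the same counts in the other comparisons. Values below the array median, as for *TPS8*, *TPS9* and *TPS11* in HL, limit how exactly their falls are known. The 14 pathway genes gave 24 calls over 9 comparisons, and 17 to 26 under the alternatives. This total was not set against a share over all transcripts.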
